A study of Mus musculus with 12 samples.

Results

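The endoplasmic reticulum (ER) chaperones and the genes of the unfolded protein response were followed in mouse cerebellar cortex on 3 diets. The 39 genes were chosen by symbol from known roles, with earlier results of these data known. The study had already reported lower expression of ER chaperones on DR from the AL and DR libraries. A high share of calls among the 39 genes is therefore no separate finding. All 39 were found among the 54752 genes of the deposited table and passed the filter on low counts. RNA-seq was performed on 12 wild-type (WT) male mice, F1 hybrids of C57BL6J and FVB. Of these, 4 were fed ad libitum (AL), 4 were on dietary restriction (DR), in which the daily food portion is reduced, and 4 were on a ketogenic diet (KD), which is rich in fat and poor in carbohydrate. All mice are labelled with a time of 12 weeks. For the AL and DR mice this is the age at death and not the time on a diet. According to the study's methods the AL and DR mice were killed early in the dark period, the DR mice without their last meal. Restriction and time since feeding therefore cannot be told apart. The AL and DR libraries were chosen for RNA quality from a larger number of mice, and the methods used here do not describe the KD feeding. A piece of cortex with several folia and without the cerebellar nuclei was used, so each value is a mixture of cell types, and fewer cells of a type cannot be told apart from less RNA per cell.

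Secreted and membrane proteins are folded in the ER by the HSP70 chaperone BiP (Hspa5), the HSP90 chaperone GRP94 (Hsp90b1), the lectins calreticulin and calnexin, and the disulfide isomerases. When folding falls behind, the sensors ATF6, IRE1 (Ern1) and PERK (Eif2ak3) act through cleaved ATF6, spliced Xbp1 and translated Atf4 to raise chaperones, ER-associated degradation (ERAD) and, through CHOP (Ddit3), genes linked to cell death. In the cerebellum the large Purkinje cells carry an extensive ER that also stores calcium, and loss of the BiP exchange factor Sil1 is known to harm them. Cleavage of ATF6, splicing of Xbp1 and translation of Atf4 are not seen in counts of reads per gene.

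ATF6 is known to act through the ER stress element, abbreviated ERSE, which reads CCAAT, any 9 bases, CCACG. This element was searched on both strands in the window from 250 bases before to 50 bases after each RefSeq start (GRCm38.p6). A window was given for 33 of the 39 genes, under current symbols where these differ. Of the 33 genes, 10 (30.3%) held the element, against 37 of 27025 genes, or 39 of all 32851 windows (0.119%). The 11 elements of these 10 genes are shown because most of the genes that fell on DR are among them. Each is read so that CCAAT comes first, with the element in capitals and 12 bases on either side.

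Hspa5 (chr2:34772013-34772055, + strand): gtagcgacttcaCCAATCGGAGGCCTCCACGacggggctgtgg
Hsp90b1, nearer element (chr10:86705521-86705563, + strand): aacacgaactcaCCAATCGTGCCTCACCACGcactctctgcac
Hsp90b1, farther element (chr10:86705626-86705668, - strand): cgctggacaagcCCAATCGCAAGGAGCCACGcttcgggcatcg
Dnajc3 (chr14:118937815-118937857, + strand): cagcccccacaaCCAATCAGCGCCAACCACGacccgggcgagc
Calr (chr8:84847063-84847105, + strand): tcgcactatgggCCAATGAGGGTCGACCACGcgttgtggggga
Canx (chr11:50325788-50325830, - strand): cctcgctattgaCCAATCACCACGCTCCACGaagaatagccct
Pdia6 (chr12:17266479-17266521, + strand): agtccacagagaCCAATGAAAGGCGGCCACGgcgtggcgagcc
Ero1lb (chr13:12565670-12565712, - strand): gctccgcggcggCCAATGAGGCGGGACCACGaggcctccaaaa
Creld2 (chr15:88819508-88819550, - strand): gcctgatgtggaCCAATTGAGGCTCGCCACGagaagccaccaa
Syvn1 (chr19:6046520-6046562, + strand): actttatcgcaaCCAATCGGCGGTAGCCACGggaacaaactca
Derl3 (chr10:75893230-75893272, - strand): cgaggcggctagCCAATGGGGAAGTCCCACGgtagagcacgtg

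The elements were centred between 35 bases (Syvn1) and 203 bases (the farther Hsp90b1 element) before the RefSeq start. In Hspa5 the centre lay 56 bases before it. The whole stretch of 250 bases before the Hspa5 start is given for context, since Hspa5, the central chaperone of the list, had one of the largest falls. The single exact element is in capitals.

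Hspa5 promoter (chr2:34771840-34772089, + strand): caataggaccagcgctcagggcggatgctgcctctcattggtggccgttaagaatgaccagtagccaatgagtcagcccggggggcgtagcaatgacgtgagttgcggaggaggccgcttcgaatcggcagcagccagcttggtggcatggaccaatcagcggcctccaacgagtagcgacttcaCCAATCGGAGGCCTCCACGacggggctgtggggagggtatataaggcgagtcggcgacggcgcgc

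A shorter relative, ERSE-II (ATTGG, any base, CCACG), was found in 0.0365% of all windows and in 2 of the 33 genes. These were the J protein gene Dnajb11 and the ERAD gene Herpud1, shown with the element in capitals. In Dnajb11 it lay 12 bases past the first transcribed base, and in Herpud1 it lay 47 bases before the start.

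Dnajb11 (chr16:22857847-22857867, + strand): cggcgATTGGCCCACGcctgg
Herpud1 (chr8:94386365-94386399, + strand): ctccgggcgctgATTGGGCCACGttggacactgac

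Between 31712084 and 40798644 reads per library were counted on genes, the median being 36674269, and totals did not separate the diets (two-sided exact permutation tests, p = 0.6 for DR against AL, 0.8 for KD against AL and 0.257 for DR against KD). Levels are given as read counts scaled to library size with TMM (CPM), or as RPKM where genes are compared with each other. Fold changes are log2 ratios from edgeR's quasi-likelihood test, and a gene was called at an adjusted p under 0.05 over all genes tested. Replicate numbers only name the mice of a diet and pair none across diets. The 3 comparisons share mice, so they are given side by side and are not independent.

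Expression of the ER genes was reduced on DR and close to AL on KD. Of the 39 genes, 15 were called lower on DR than on AL and 0 were called higher. Among all 19052 genes tested, 1.74% were called lower and 1.32% higher. Against KD, 12 of the 39 were called lower on DR and 0 higher, with 2.43% of 19087 genes lower and 2.51% higher. At an unadjusted p under 0.05, 1 of the 39 genes was higher on DR in each of these comparisons, which was Edem2, and with DESeq2 this gene was called against AL. In KD against AL, 0 of the 39 were called, as were 0 of all 19036 genes (0%). At an unadjusted p under 0.05 there were 1 of the 39 and 928 of all genes in KD against AL, and DESeq2 called 0 and 10. The median log2 fold change of the 39 genes was -0.11 for DR against AL, -0.10 for DR against KD and -0.04 for KD against AL, where the median over all genes was 0.0036, 0.0024 and 0.0002.

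**Figure D1:**
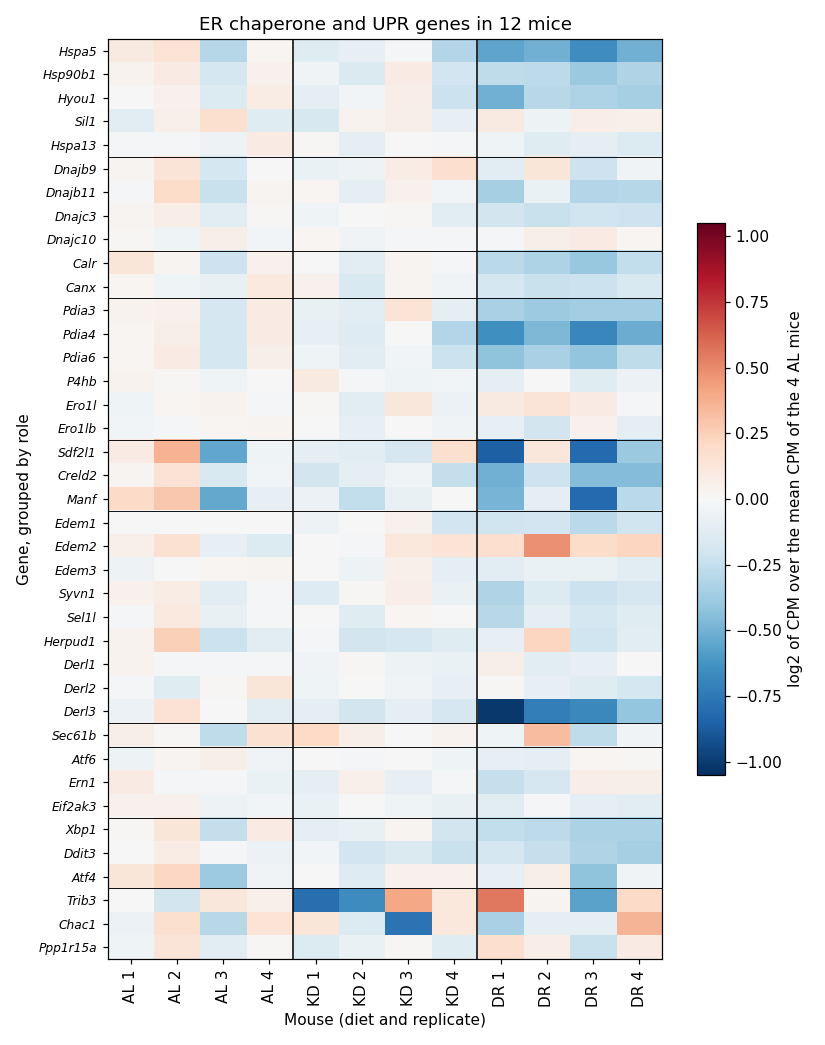
Each row is 1 of the 39 genes, grouped by role between the horizontal lines, and each column is 1 mouse. Colour gives the log2 ratio of the CPM to the mean of the 4 AL mice (blue lower, red higher). The 4 DR columns are blue through most chaperone and isomerase rows, and the rows of the sensors Atf6, Ern1 and Eif2ak3 are pale in all 12 mice.

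In 17 of the 39 genes every DR mouse lay below every AL mouse, against 5.64% of all genes tested. In 13 of the 39 every DR mouse lay below every AL and every KD mouse, against 2.98% of all genes. The 15 genes called lower on DR were all among the 17, and the other two were Edem3 and Sel1l. In each of the 15 the KD mean lay between the DR mean and the AL mean. These genes were called from the same AL and DR libraries, which favours this order, and its share over all genes was not computed. It is therefore no separate finding. Over all 39 genes the KD mean was below the AL mean in 35. Among all genes tested for KD against AL, 49.9% had a log2 fold change below 0. Of the 156 single KD values of the 39 genes, 107 lay inside the range of the AL mice. The share for all genes was not computed, so this count is a description only. Summed over the 39 genes, the AL mice held 3287 to 3841 CPM, the KD mice 3387 to 3716 and the DR mice 2949 to 3151.

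Among the HSP70 and HSP90 chaperones, the 3 large ones fell on DR and the exchange factor Sil1 and the small HSP70 Hspa13 did not pass the test. Hspa5 was at 478, 494, 365 and 454 CPM in AL replicates 1 to 4, at 409, 423, 444 and 363 CPM in KD replicates 1 to 4, and at 305, 316, 285 and 315 CPM in DR replicates 1 to 4. The DR mice lay below all 8 other mice, and AL replicate 3 and KD replicate 4 were the lowest of their diets. BiP mRNA was thus lower by 31.8% on DR than on AL (means of 448 ± 57.8 and 305 ± 14.3 CPM over 4 mice, AL first, with SD). On the log2 scale this was -0.55 ± 0.08 (SE, adjusted p = 0.00143). Against KD it was lower by 25.5%, or -0.42 ± 0.06 (SE, adjusted p = 0.000521). Against AL, the KD value was -0.13, with a 95% interval from -0.29 to 0.04.

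Hsp90b1 was at 363, 375, 309.8 and 363 CPM in the AL mice, 343, 318, 375 and 306 CPM in the KD mice and 294, 291, 269 and 284 CPM in the DR mice. Its DR values did not reach those of any other mouse, and the log2 fold change was -0.31 against AL (adjusted p = 0.01) and -0.24 against KD (adjusted p = 0.024). Exons of another gene on the opposite strand cover 15.7% of its exonic bases, and the libraries did not keep strand, so part of its reads is uncertain. Against KD its call was lost without DR replicate 3, KD replicate 1 or KD replicate 3 (log2 fold changes from -0.28 to -0.18 over the 8 fits that leave out 1 mouse each). Hyou1, an HSP70 relative that works as a nucleotide exchange factor for BiP, was at 163 to 189.5 CPM on AL, 154 to 188 on KD and 126 to 147 on DR. It fell by 0.36 on the log2 scale against AL (adjusted p = 0.00411) and by 0.30 against KD (adjusted p = 0.00952). For Sil1, which does the same work as Hyou1 by another fold, the difference between DR and AL was 0.04, with a 95% interval from -0.12 to 0.20. Hspa13 differed by -0.10 (95% interval from -0.21 to 0.00).

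J proteins bring clients to BiP and start its ATPase cycle, and 1 of 4 was called lower against AL and 2 of 4 against KD. Dnajc3 was at 91.1, 93.8, 82.6 and 90.3 CPM in AL replicates 1 to 4, at 86.5, 89.5, 89.99 and 82.3 CPM in KD replicates 1 to 4 and at 78.2, 76.1, 77.3 and 76.98 CPM in DR replicates 1 to 4. The DR mice were nearly alike and below the rest, by a log2 fold change of -0.21 against AL (adjusted p = 0.0224) and -0.17 against KD (adjusted p = 0.026). Its call against AL remained without AL replicate 3 or DR replicate 1 and was lost in the other 6 fits that leave out 1 mouse. Against KD it remained without DR replicate 1, DR replicate 4 or KD replicate 4 and was lost in the other 5. Dnajb11 was called lower against KD (-0.24, adjusted p = 0.0254) and not against AL (-0.26, 95% interval from -0.42 to -0.09, adjusted p = 0.101). In this gene 1 AL mouse, replicate 3 at 56.5 CPM, fell among the DR mice, at 52.0 to 63.1 CPM. The call of Dnajb11 against KD remained only without DR replicate 2 or KD replicate 2 among the fits that leave out 1 mouse, and without AL replicate 3 or DR replicate 2 the gene was also called against AL (log2 fold changes from -0.32 to -0.18 over the 8 fits). Dnajb9, which keeps IRE1 inactive together with BiP, and Dnajc10, a J protein with reductase activity, differed by -0.06 and 0.04 between DR and AL (95% intervals from -0.23 to 0.11 and from -0.06 to 0.14).

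**Figure D2:**
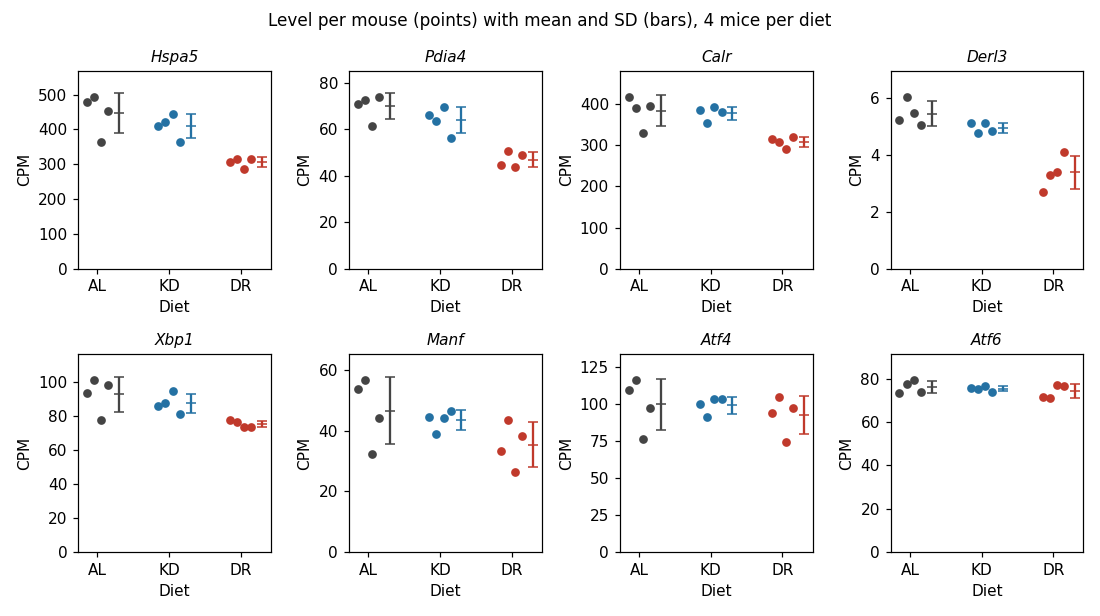
Points give the CPM of single mice for 8 of the genes by diet, and the bars beside them the mean and SD of 4 mice. Axes start at 0. For Hspa5, Pdia4, Calr and Derl3 the DR points lie below all AL and KD points, for Manf and Atf4 the diets overlap, and for Atf6 all 12 mice lie between 71.2 and 79.4 CPM.

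Both lectin chaperones, which hold glycoproteins with a trimmed sugar, fell on DR against AL. Calr, the most abundant of the 39 genes per length at 133 ± 13.1 RPKM on AL (SD, n = 4), was at 419, 391.7, 331 and 396 CPM in AL replicates 1 to 4, 386, 356, 392.3 and 380.3 CPM in KD replicates 1 to 4 and 315, 307, 292 and 321 CPM in DR replicates 1 to 4. All DR mice were below all others, AL replicate 3 being the nearest, and the log2 fold change was -0.32 against AL (adjusted p = 0.0147) and -0.29 against KD (adjusted p = 0.00146). The call of Calr against AL was lost without AL replicate 1, AL replicate 4 or DR replicate 3 (log2 fold changes from -0.38 to -0.27 over the 8 fits). Canx, the membrane-bound lectin, was at 329.5 to 373 CPM on AL, 312 to 359.5 on KD and 295 to 312 on DR, with a log2 fold change of -0.20 against AL (adjusted p = 0.0325). Against KD its value of -0.17 had an adjusted p of 0.0503, just over the threshold, and it was called without KD replicate 2. Its call against AL remained without AL replicate 3, DR replicate 1 or DR replicate 4 and was lost in the other 5 fits that leave out 1 mouse.

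Of the disulfide isomerases and oxidases, the 3 isomerases Pdia3, Pdia4 and Pdia6 fell against both diets and P4hb, Ero1l and Ero1lb were not called. Pdia4 was at 70.9, 72.7, 61.5 and 73.96 CPM in AL replicates 1 to 4, 65.9, 63.6, 69.6 and 56.4 CPM in KD replicates 1 to 4 and 44.7, 50.4, 43.5 and 48.6 CPM in DR replicates 1 to 4. All DR mice lay below all other mice, and the level on DR was lower by 32.9% against AL (-0.58 ± 0.06 on the log2 scale, SE, adjusted p = 0.000487) and by 26.7% against KD (-0.45 ± 0.06, SE, adjusted p = 0.00075). Pdia3, which folds glycoproteins together with the lectins, lay at 124 to 128 CPM on DR against 143 to 171 on AL and 149.6 to 178 on KD. The coefficient of variation of Pdia3 among DR mice was 1.28%, and the log2 fold change was -0.36 against AL (adjusted p = 0.00211) and -0.33 against KD (adjusted p = 0.00191). KD replicate 3, at 178 CPM, stood apart from the other KD mice, at 149.6 to 152 CPM.

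Pdia6 was at 95.8 to 107 CPM on DR, 113 to 136 on AL and 110.3 to 126 on KD, and fell by 0.36 on the log2 scale against AL (adjusted p = 0.00538) and by 0.26 against KD (adjusted p = 0.00748). P4hb, which encodes the founding disulfide isomerase PDI, was at 76.2 to 82.9 CPM on DR and 80.6 to 85.3 on AL, a log2 difference of -0.07 with a 95% interval from -0.17 to 0.02. This interval lay above that of Pdia4, from -0.71 to -0.44, and above that of Pdia3, from -0.48 to -0.25. The oxidases Ero1l and Ero1lb, which pass oxidizing equivalents to the isomerases, differed by 0.08 (95% interval from -0.03 to 0.19) and -0.08 (from -0.21 to 0.05).

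Of the 3 small ER cofactors, 1 was called against AL, and Manf and Sdf2l1 varied widely between AL mice and between DR mice. Creld2, a secreted ER stress marker with isomerase activity, was at 20.8, 22.7, 18.2 and 19.997 CPM in AL replicates 1 to 4, 17.8, 19.2, 19.9 and 17.2 CPM in KD replicates 1 to 4 and 14.4, 17.6, 14.9 and 14.9 CPM in DR replicates 1 to 4. DR replicate 2 stood above the other DR mice and above KD replicate 4, and the gene fell against AL (-0.41, adjusted p = 0.0163) without being called against KD (-0.26, adjusted p = 0.0564). Its call against AL was lost without AL replicate 1, AL replicate 2, DR replicate 1 or DR replicate 3, and without DR replicate 2 it was called against KD as well (log2 fold changes against KD from -0.33 to -0.23 over the 8 fits). Manf, a neurotrophic factor of the ER, was at 53.7, 56.9, 32.2 and 44.1 CPM in the AL mice, 44.7, 39.1, 44.3 and 46.5 CPM in the KD mice and 33.3, 43.7, 26.5 and 38.3 CPM in the DR mice. AL replicate 3 lay below 3 of the 4 DR mice, and the log2 difference of -0.40 was not called (95% interval from -0.73 to -0.07, adjusted p = 0.185). Without AL replicate 3 Manf was called against AL, and without DR replicate 2 it was called against KD (log2 fold changes from -0.54 to -0.29 and from -0.42 to -0.19 over the fits that leave out 1 mouse). Sdf2l1, a partner of the J proteins, showed the same order of AL mice, at 15.7, 18.9, 10.1 and 14.3 CPM, and DR values of 8.12, 15.98, 8.37 and 11.3 CPM. Its difference of -0.44 had a 95% interval from -0.86 to -0.02 and an adjusted p of 0.255, and without DR replicate 2 it was called against KD (log2 differences from -0.68 to -0.30 against AL and from -0.62 to -0.27 against KD over the fits that leave out 1 mouse).

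**Figure D3:**
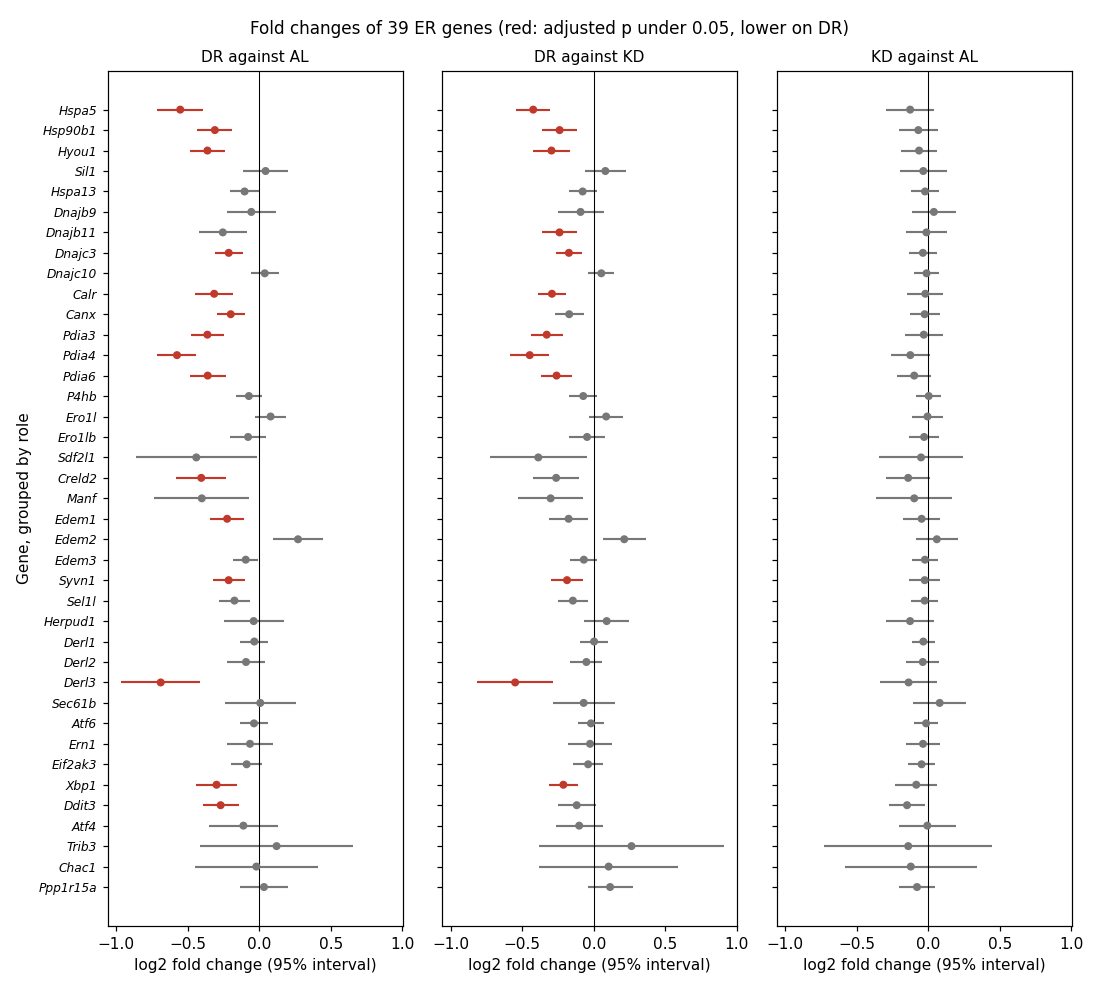
Points give the log2 fold change of each of the 39 genes and lines its 95% interval, for DR against AL, DR against KD and KD against AL. Red marks genes called lower on DR (15 and 12), and 0 genes are red in KD against AL, where the point values lie between -0.15 and 0.08.

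ERAD genes, which pull misfolded proteins out of the ER and tag them for the proteasome, were divided. Of 9 genes, 3 were called lower against AL and 2 against KD. Derl3, a retrotranslocation channel subunit, had the largest fold change of the 39 genes at a low level: 5.23, 6.06, 5.48 and 5.07 CPM in AL replicates 1 to 4, 5.12, 4.77, 5.12 and 4.84 CPM in KD replicates 1 to 4, and 2.71, 3.31, 3.42 and 4.12 CPM in DR replicates 1 to 4. The DR mice were all below the others although they differed among themselves, and the log2 fold change was -0.69 ± 0.13 against AL (SE, adjusted p = 0.0118) and -0.55 ± 0.12 against KD (SE, adjusted p = 0.018). The other two Derlins, Derl1 and Derl2, differed from AL by -0.03 (95% interval from -0.13 to 0.06) and -0.09 (from -0.23 to 0.04), above the interval of Derl3, from -0.97 to -0.41. The call of Derl3 against KD was lost without KD replicate 1 or KD replicate 3 (log2 fold changes from -0.66 to -0.45 over the 8 fits).

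Syvn1, the ubiquitin ligase HRD1, was at 108, 111, 96.8 and 104 CPM in AL replicates 1 to 4, 95.7, 106, 110.3 and 99.9 CPM in KD replicates 1 to 4 and 84.4, 95.1, 89.6 and 92.7 CPM in DR replicates 1 to 4. The highest DR mouse, replicate 2, was just below the lowest KD mouse, and the log2 fold changes were -0.21 against AL (adjusted p = 0.0404) and -0.19 against KD (adjusted p = 0.0481). Syvn1 kept its call without AL replicate 3 or DR replicate 2 against AL, and without DR replicate 2 or KD replicate 1 against KD, and lost it in the other 6 fits of each comparison that leave out 1 mouse. Its adaptor Sel1l was below every AL mouse in all DR mice (191 to 217 against 221 to 249.5 CPM) and was not called (-0.17, adjusted p = 0.0854).

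The 3 mannosidase-like Edem genes, which mark glycoproteins for degradation, differed in sign. Edem1 was at 21.4, 21.5, 21.4 and 21.5 CPM in AL replicates 1 to 4 and 18.6, 18.7, 17.6 and 18.5 CPM in DR replicates 1 to 4, with KD values of 20.7, 21.5, 22.1 and 18.7 CPM. It was called lower against AL (-0.22, adjusted p = 0.0431), and this call was lost whichever of the 8 mice was left out, with log2 fold changes from -0.23 to -0.21. Edem2 was at 26.7, 32.9, 27.0 and 27.5 CPM on DR, above every AL mouse (21.3 to 26.3 CPM) and every KD mouse (23.2 to 26.03 CPM). Its difference of 0.27 from AL had a 95% interval from 0.10 to 0.44 and an adjusted p of 0.0865, so it was not called. Edem3 differed by -0.09 (95% interval from -0.18 to -0.01, adjusted p = 0.238). Herpud1, which organizes the HRD1 complex, was at 48.2 to 67.1 CPM on AL and 48.7 to 66.1 on DR, and the translocon subunit Sec61b at 9.61 to 12.9 and 9.61 to 14.4 CPM, with log2 differences of -0.04 (95% interval from -0.25 to 0.17) and 0.01 (from -0.24 to 0.25).

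Of the 3 stress sensors, 0 were called in edgeR's test in any comparison, 0 had an unadjusted p under 0.05 and 0 were called with DESeq2. Atf6 was at 73.6, 77.6, 79.4 and 74.0 CPM in AL replicates 1 to 4, 75.8, 75.1, 76.4 and 73.7 CPM in KD replicates 1 to 4 and 71.7, 71.2, 77.1 and 76.8 CPM in DR replicates 1 to 4. All diets overlapped, and the log2 difference between DR and AL was -0.04 with a 95% interval from -0.14 to 0.06. Ern1 differed by -0.07 (95% interval from -0.22 to 0.09) and Eif2ak3 by -0.09 (from -0.20 to 0.02). The intervals of all 3 lay above that of Hspa5, from -0.71 to -0.39.

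Of the transcription factors, Xbp1 and Ddit3 fell on DR and Atf4 was not called. Xbp1 was at 93.4, 101, 77.5 and 97.9 CPM in AL replicates 1 to 4, 85.9, 87.6, 94.3 and 80.7 CPM in KD replicates 1 to 4 and 77.3, 76.2, 73.5 and 73.6 CPM in DR replicates 1 to 4. AL replicate 3 lay just above the highest DR mouse, and the log2 fold change was -0.30 against AL (adjusted p = 0.027) and -0.21 against KD (adjusted p = 0.0191). The call of Xbp1 against AL remained without AL replicate 3 or DR replicate 2 and was lost in the other 6 fits that leave out 1 mouse (log2 fold changes from -0.37 to -0.25). Against KD it was lost without DR replicate 3 or KD replicate 3.

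Ddit3, the gene of CHOP, was at 24.6 to 27.2 CPM on AL, 21.96 to 25.3 on KD and 20.3 to 22.6 on DR. It fell by 0.27 on the log2 scale against AL (adjusted p = 0.0246) and was not called against KD (-0.12, adjusted p = 0.33). It was also the only 1 of the 39 genes with an unadjusted p under 0.05 in KD against AL (-0.15, adjusted p = 0.981). Exons of other gene models together cover 10.9% of its exonic bases, so part of its reads is uncertain. Among them are a second model of the same name, with 105 exonic bases, and Mars on the opposite strand. The second model has 0 counts in every library, so the level of Ddit3 may be understated. The call was lost without AL replicate 1, AL replicate 2, DR replicate 3 or DR replicate 4 (log2 fold changes from -0.30 to -0.24 over the 8 fits). Atf4 was at 109, 117, 76.7 and 97.4 CPM in AL replicates 1 to 4 and 94.3, 105, 74.5 and 97.2 CPM in DR replicates 1 to 4, so both diets covered nearly the same range (-0.11, 95% interval from -0.35 to 0.13). Of the 3 genes downstream of PERK and CHOP, 0 were called in edgeR's test, 0 had an unadjusted p under 0.05 and 0 were called with DESeq2 in any comparison. Ppp1r15a, whose product GADD34 restores translation, was at 31.6 to 37.8 CPM on AL and 29.2 to 38.8 on DR. Trib3 and Chac1 stood at 0.518 to 1.12 and 0.996 to 1.62 CPM on DR, with 95% intervals from -0.41 to 0.65 and from -0.45 to 0.41 against AL.

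Across the roles, 11 genes were called lower on DR against both diets (Hspa5, Hsp90b1, Hyou1, Dnajc3, Calr, Pdia3, Pdia4, Pdia6, Syvn1, Derl3 and Xbp1). Canx, Creld2, Edem1 and Ddit3 were called against AL alone and Dnajb11 against KD alone, and 23 genes in neither comparison. Whether a gene differed more from AL than from KD was not tested. In fits that leave out 1 mouse, the number called against AL was 7 without AL replicate 1, 8 without AL replicate 2, 16 without AL replicate 3, 9 without AL replicate 4 and 7 without DR replicate 3. Against KD it was 7 without DR replicate 3 and 6 without KD replicate 3. Hspa5, Hyou1, Pdia3, Pdia4 and Pdia6 were called against both diets in every one of these fits.

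The order of mice within a diet recurred over genes. AL replicate 3 was the lowest AL mouse in 27 of the 39 genes, and AL replicate 2 was the highest in 21. On KD, replicate 3 was the highest in 21 genes, and on DR, replicate 2 was the highest in 19. Genes of 1 mouse share a library, so these counts describe mice and not separate observations. They were made over the 39 genes only, and whether the order is particular to these genes was not tested. The coefficient of variation of Hspa5 was 12.9% on AL, 8.42% on KD and 4.68% on DR, and that of Xbp1 was 11.3%, 6.41% and 2.55%.

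Per length of transcript, the 5 most abundant of the 39 genes on AL were Calr, Hspa5 (106 ± 13.7 RPKM), Hsp90b1 (87.5 ± 7.23 RPKM), Canx (74.2 ± 4.02 RPKM) and Pdia3 (51.4 ± 4.06 RPKM, SD, n = 4 each), and all 5 were called lower on DR against AL. The order on DR was Calr (107 RPKM), Hspa5 (72.2 RPKM), Hsp90b1 (70.5 RPKM), Canx (64.6 RPKM) and Pdia3 (39.9 RPKM). The least abundant were Derl3 (2.74 RPKM on AL), Chac1 (0.772 RPKM) and Trib3 (0.36 RPKM). Of these 3 only Derl3 was called.

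Of the 10 genes that held the exact ER stress element, 9 were called lower on DR against AL (all but Ero1lb) and 7 against KD, with median log2 fold changes of -0.31 and -0.25. Among the 23 with a window and no exact element, 5 were called against AL and 4 against KD (medians -0.09 and -0.07). The 6 genes without a window were Hyou1, Sil1, Hspa13, Manf, Derl1 and Atf6, of which 1, Hyou1, was called against AL and against KD. Outside the list, 14 tested genes held the element, and 0 of them were called lower or higher on DR against AL in edgeR's test, with a median of 0.11. At an unadjusted p under 0.05 there were 4, of which 1 was lower, and DESeq2 called 1, of which 0 were lower. Some of the 14 were loosely measured, with 95% intervals as wide as from -0.86 to 1.16, so changes of the size seen in the ER genes could be missed in them. Acacb, named after its value was seen, was the 1 called with DESeq2, and in edgeR's test it was higher on DR than on KD (0.47, adjusted p = 0.0408). The list was compiled from ER biology, in which this element was first described, so a high share among its genes is no separate finding.

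**Figure D4:**
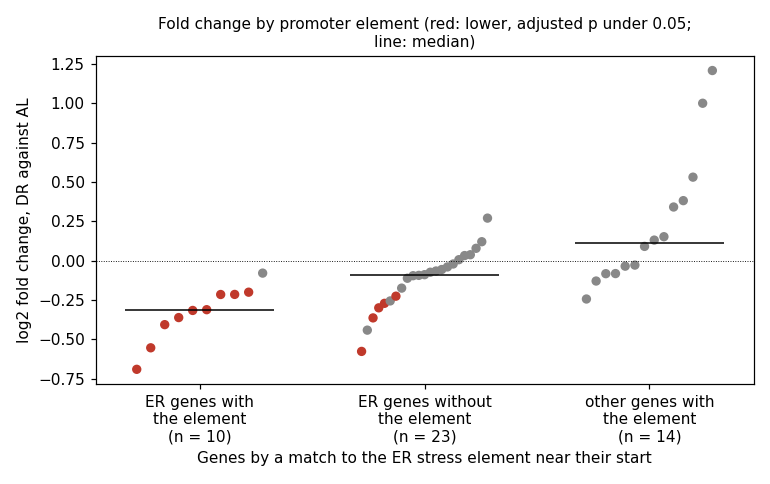
Points give the log2 fold change for DR against AL of the 10 ER genes with the element, the 23 ER genes with a window and no element, and the 14 other tested genes with it; lines are medians. Red points, called lower on DR, make up 9 of 10, 5 of 23 and 0 of 14.

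When the last letter of the element was left free, an alternative chosen after the exact result was known, 14 of the 33 genes matched, against 0.365% of all windows. The added genes were Pdia3, Pdia4, Derl2 and Herpud1, of which Pdia3 and Pdia4 fell on DR. The core CCACG, which is part of both elements, was present in 26 of the 33 windows and in 32.8% of all windows. The UPR element (TGACG followed by TGG) was in 0 of the 33 and in 0.676% of all windows. The ATF4 element (TGATG, any base, AA) was in 3 of the 33, those of Chac1, Herpud1 and Trib3, and in 3.97% of all windows. These matches describe letters in a window and not binding.

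Other genes of the same organelle were taken from lists compiled by function, also with earlier results of these data known. Among 36 tested ER folding enzymes outside the list, 2 were lower on DR against AL, Creld1 (-0.22, adjusted p = 0.0185) and the isomerase Txndc5 (-0.23, adjusted p = 0.0425), and 0 against KD in edgeR's test (7 lower and 1 higher at an unadjusted p under 0.05, 1 lower with DESeq2). Of 34 genes of translocation and N-glycosylation, 1 was called lower against each of AL and KD, the translocon channel Sec61a1 (-0.23, adjusted p = 0.0117, and -0.20, adjusted p = 0.0118). Of 23 further ERAD genes 0 were called against AL or KD (0 lower and 1 higher, and 0 lower and 2 higher, at an unadjusted p under 0.05, and 0 with DESeq2). Of 28 genes of ER to Golgi transport, 0 were called against AL (4 lower and 1 higher at an unadjusted p under 0.05, 1 with DESeq2) and 2 against KD, Ergic1 (-0.17, adjusted p = 0.0152) and Lman2 (-0.17, adjusted p = 0.04). The KDEL receptors, which return escaped ER chaperones, were not called, with log2 differences between DR and AL of 0.07 for Kdelr1, 0.02 for Kdelr2 and -0.53 for Kdelr3, the last at under 0.7 CPM in all mice.

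Stress sensing and eIF2 alpha genes outside the list numbered 16, of which 0 were called against either diet in edgeR's test (2 lower and 1 higher against AL and 1 lower and 3 higher against KD at an unadjusted p under 0.05, and 1 lower and 0 with DESeq2). Of 36 tested ATF4 target genes, 1 was lower on DR against AL, Aldh1l2 (-0.52, adjusted p = 0.00202), and against KD 2 were lower (Aldh1l2 and Vldlr) and 2 higher (Ddit4 and Psph). Exons of other genes cover 14.1% of the exonic bases of Aldh1l2, 11.9% of those of Txndc5 and 10.4% of those of Psph, so part of their reads is uncertain. The median log2 fold changes of these lists against AL lay between -0.04 and -0.0012, near the 0.0036 of all genes. In KD against AL, 0 genes of any of these lists were called in edgeR's test, and at an unadjusted p under 0.05 no list had more than 1 lower and 3 higher (0 with DESeq2).

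**Figure D5:**
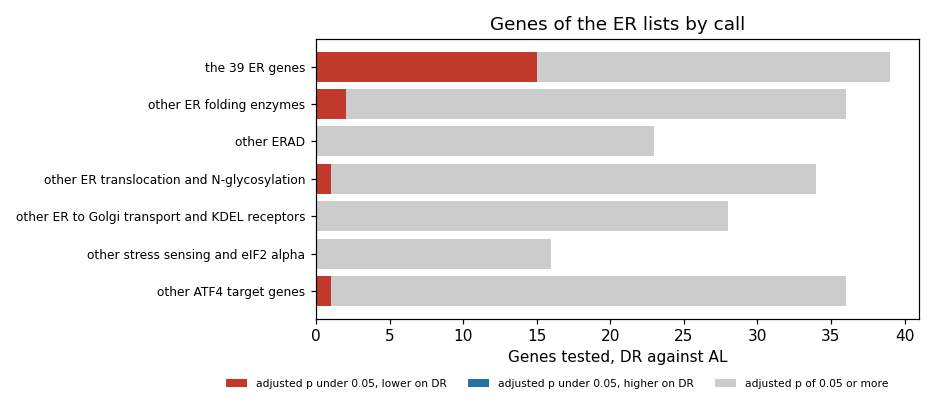
Bars count the tested genes of each ER list in DR against AL, divided into those called lower on DR (red), called higher (blue) and not called (grey). The red part is 15 of 39 for the ER genes followed here, and 2 of 36, 0 of 23, 1 of 34, 0 of 28, 0 of 16 and 1 of 36 for the other lists, with no blue part in any.

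The cytosolic heat shock proteins, which answer to heat shock factor rather than to ER stress, fell alongside. Of 13 genes, 8 were called lower on DR against AL and 9 against KD, 0 higher, with medians of -0.34 and -0.31. The inducible HSP70 gene Hspa1b fell by 1.13 on the log2 scale against AL (adjusted p = 0.00538) and Hsp90ab1 by 0.38 (adjusted p = 0.0111). Hspa1a and Hspa1b are nearly identical copies, so reads may be divided between them. The cold-inducible Cirbp moved the other way: it was at 61.2, 70.0, 83.0 and 61.3 CPM in AL replicates 1 to 4, 79.3, 80.8, 65.9 and 73.8 CPM in KD replicates 1 to 4 and 96.1, 109.7, 107 and 98.0 CPM in DR replicates 1 to 4. It rose by 0.57 on the log2 scale against AL (adjusted p = 0.00198) and by 0.45 against KD (adjusted p = 0.000578). Rbm3, also cold-inducible, differed by 0.07 between DR and AL (95% interval from -0.05 to 0.19). The part of temperature in the ER genes was not tested.

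Markers of several cell types also differed. Of 10 Purkinje cell markers 4 were called lower on DR against AL, Car8 among them, and the summed level of the 10 was 9105 to 9642 CPM on AL, 8930.5 to 9239 on KD and 7601 to 8787 on DR. Several of these markers were picked by the study from these libraries. Of 10 markers of Bergmann glia and astrocytes 4 were called lower (Aqp4, Hopx, Gja1 and Fabp7), with sums of 3015 to 3163, 2902 to 3061 and 2679 to 2810 CPM. Exons on the opposite strand cover 27.2% of the exonic bases of Hopx, so part of its reads is uncertain. The 9 oligodendrocyte markers, of which 1 was called lower on DR against AL, had sums of 2327 to 2957, 2565 to 2777 and 2174 to 2701 CPM. The 10 granule cell markers, at 7183 to 7760 CPM on AL and 7299 to 7587 CPM on DR, had 0 calls against AL (1 lower and 2 higher at an unadjusted p under 0.05, 0 with DESeq2). Markers of molecular layer interneurons, microglia, endothelium, choroid plexus, meningeal fibroblasts and forebrain neurons also had 0 calls against AL in edgeR's test (at an unadjusted p under 0.05 at most 2 lower and 1 higher in a list, and with DESeq2 1 higher in the meningeal list), and the forebrain list summed to 89.1 to 110.8 CPM over all mice. Against KD, 3 Purkinje cell markers were called lower on DR, Car8 among them, and 3 markers of Bergmann glia and astrocytes (Aqp4, Fabp7 and Hopx). In the same comparison 1 granule cell marker was called lower and 1 higher. Lower calls were also made for 2 oligodendrocyte markers and for 1 marker each of endothelium and choroid plexus. The part of cell composition in the ER genes was not tested.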

How the data were processed

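Total RNA of cerebellar cortex was made into poly(A)-selected libraries with a kit that does not keep strand, and reads were sequenced for 12 mice, 4 per diet. Per the labels and the study's methods, the authors trimmed reads with Trimmomatic 0.39, aligned them with STAR 2.7.0f to GRCm38.p6 with GENCODE vM20 and deposited whole-number counts of reads per gene from featureCounts (Subread 1.6.4). The strand setting of the counting is not given in the sources used here.

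Each pair of diets was fitted alone with edgeR 4.0.16 in R 4.3.3 (filterByExpr with a minimum count of 10 and total of 15, TMM, quasi-likelihood test). P-values were adjusted after Benjamini and Hochberg across every gene in the fit, and the threshold was 0.05. This adjusted p is meant wherever one is given, and the standard error is the log2 fold change divided by the square root of the F statistic. The test was tried on simulated counts first. Levels are CPM with TMM factors over all 12 libraries, and RPKM divides them by exon length. Alternatives were DESeq2 1.42.0, other scalings and filters, 1 fit over all libraries, and each mouse left out. The labels do not say more about the origin of replicates than that each is a sample of a diet, so p-values measure the spread between these samples. Promoter windows and their sequences are from RefSeq on GRCm38.p6. The planned look at protein ends was not run.

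The genes and lists were chosen with earlier results of these data known. All 39 genes are named, from the other lists the called ones or up to 4 of them, and Acacb as stated. Some cell type markers are not reported here.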

Additional observations from a re-analysis of the deposited data

Results flagged for a closer look

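In 5 of 117 groups of 4 mice (39 genes on 3 diets) 1 mouse stood apart from the other 3 by Dixon's criterion, and chance alone gives about 1 in 20 groups. Pdia3 was at 178 CPM in KD replicate 3 and at 149.6 to 152 CPM in the other KD mice. Creld2 was at 17.6 CPM in DR replicate 2 and at 14.4 to 14.9 CPM in the other DR mice. The same mouse had 32.9 CPM of Edem2, against 26.7 to 27.5 CPM in the others. Edem1 was at 17.6 CPM in DR replicate 3, below the 18.5 to 18.7 CPM of the other DR mice. Derl1 was at 80.03 CPM in AL replicate 1 and at 77.1 to 77.6 CPM in the other AL mice.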

How the results depend on the processing

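With 1 mouse left out, the number of ER genes called ranged from 7 to 16 for DR against AL (15 with all mice) and from 6 to 14 for DR against KD (12 with all mice), and stayed at 0 for KD against AL. The number of mice is smaller in these fits. Of the genes called, 7 of 15 and 6 of 12 were called in every such fit. Under the other 6 settings (DESeq2 size factors, library size only, no filter on low counts, mean CPM above 10, the DESeq2 Wald test and 1 fit over all 12 libraries) the counts were 13 to 19 and 10 to 17, and 13 of 15 and 9 of 12 genes were called under every setting in which they were tested, Derl3 among them, which was too low to be tested at a mean CPM above 10. Edem2 was called higher against AL without the filter, with DESeq2 and in the fit over all libraries. No called gene changed direction under any setting. Over all genes, 583 were called for DR against AL, against 235 to 712 with 1 mouse left out, 1258 without the filter and 1012 with DESeq2. For DR against KD, 942 were called, against 467 (without KD replicate 3) to 946 with 1 mouse left out, and 1503 without the filter. For KD against AL, 0 became 118 without the filter, 10 with DESeq2, and 6, 2 and 5 without AL replicate 1, 3 and 4. The cause was not tested. No paired analysis was possible because the labels give the mice no replicate numbers, and the numbers used here only name mice in the order of their records. With 4 mice per diet, the spread of Manf and Sdf2l1 limits what can be called.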
